A study of Mus musculus with 16 samples.

Results

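Cerulein was compared with phosphate-buffered saline (PBS) in wild-type (WT) mouse pancreas, gene by gene, in 8 of the 16 libraries of the series. These are the 8 whose titles name WT tissue, 4 from each treatment. The WT mice were C57BL/6J, 6 to 8 weeks old, kept free of specific pathogens, and littermates of the Adam17ex/ex mice, here Adam17ex, that gave the other 8 libraries. Adam17ex mice carry a hypomorphic allele of Adam17, which encodes a protease that releases proteins from the cell surface. Cerulein, a peptide analogue of cholecystokinin, was injected into the peritoneum at 50 µg per kg every hour for 7 h, and control mice received 50 µl of PBS in the same way. Tissue was collected 1 h after the last injection. The study set out to profile which gene networks change in this model of acute pancreatitis.

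None of the WT PBS libraries and 1 of the WT cerulein libraries, replicate 1, came from a male, and sex was a term of the model. The sample descriptions hold a 4-digit code of unstated meaning, and the codes of the WT PBS libraries are all larger than those of the WT cerulein libraries. If it marks cohorts, cohort and treatment cannot be told apart. The labels number replicates without naming animals, so the p-values measure the spread between these libraries. The tissue was bulk RNA, in which fewer cells of a type and less RNA per cell cannot be told apart.

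Acinar cells make up most of the pancreas and build, store and release digestive enzymes. Cholecystokinin reaches them through the receptor Cckar, which acts through phospholipase C beta, inositol trisphosphate receptors and calcium released from the endoplasmic reticulum. At doses above those that drive secretion best, cerulein blocks release, activates trypsinogen inside the cell and injures the tissue.

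The 8 libraries held 859573 to 1345643 UMIs (unique molecular identifiers, 1 per captured transcript) each. The first principal component, 65% of the variance, placed the PBS libraries between -46.3 and -38.7 and the cerulein libraries between 39.8 and 46.7. The second, 8.68%, set WT PBS replicates 1 and 2 (15 and 27.8) apart from replicates 3 and 4 (-18.3 and -22.4). Markers of other cell types moved along with this split. The summed level of 7 tested adipocyte markers was 167 to 869.7 CPM with PBS and 54.4 to 89.7 CPM with cerulein, and the mean log2(CPM + 1) over these markers was 5.43, 6.37, 3.09 and 3.68 in PBS replicates 1 to 4. Over 4 tested B and plasma cell markers that mean was 7.06, 7.68, 3.37 and 3.62 with PBS and 2.37 to 3.79 with cerulein. Red blood cell markers were highest in WT PBS replicate 4. All 7 adipocyte, 4 B cell and 5 red blood cell markers tested were called lower with cerulein. Without WT PBS replicates 1 and 2 the counts were 1 adipocyte and 0 B cell markers, and without WT PBS replicate 4 there were 0 red blood cell markers, with 1 without WT cerulein replicate 1, 3 or 4. Islet, endothelial, macrophage and fibroblast markers overlapped between the groups in mean level, and no neutrophil or T cell marker passed the filter on low counts.

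**Figure D1:**
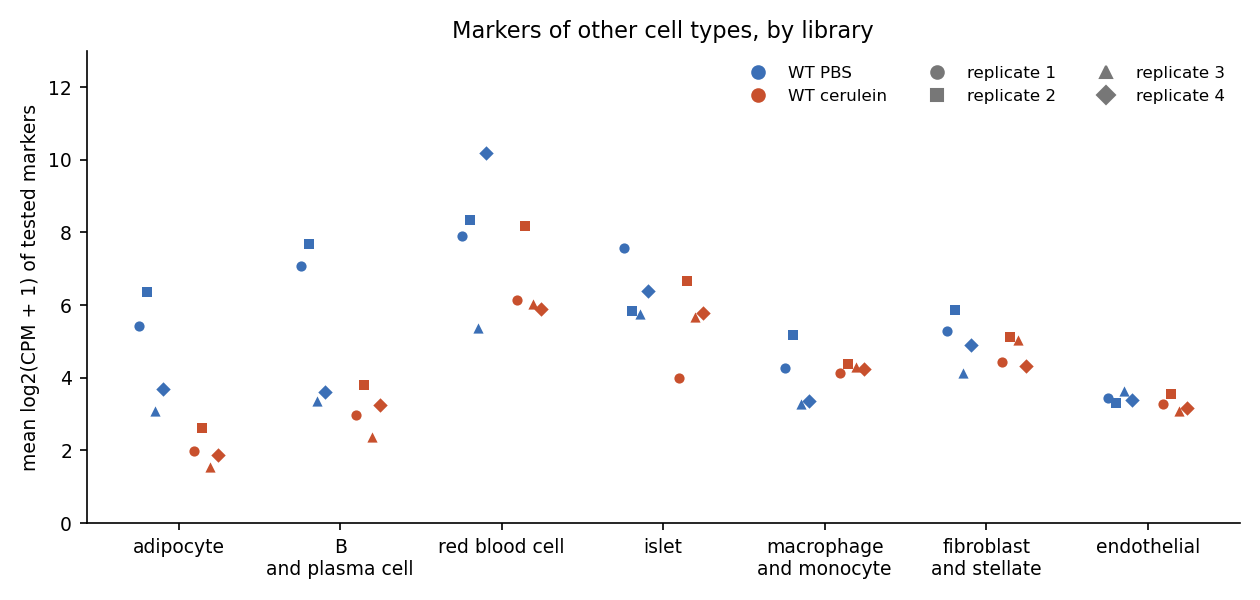
Mean log2(CPM + 1) over the tested markers of 7 other cell types, with 1 point per library, blue for WT PBS, orange for WT cerulein, and a marker shape per replicate number. Adipocyte and B cell levels are higher in WT PBS replicates 1 and 2 than in replicates 3 and 4, while islet, macrophage, fibroblast and endothelial points overlap between treatments.

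Of 24019 genes in the count table, 8236 passed the filter and held 97.21% to 98.21% of the UMIs of each library. Of these, 3388, or 41.1%, differed between cerulein and PBS at an adjusted p under 0.05 in edgeR's quasi-likelihood test with Benjamini-Hochberg adjustment, the test behind every adjusted p given here. In all, 1631 (19.8%) were higher and 1757 (21.3%) lower, and 1071 and 1161 passed 2-fold. The 4 cerulein values lay entirely above the 4 PBS values for 19.2% of all genes tested and entirely below for 20.2%, 39.3% in all. The median log2 fold change over all genes tested was -0.04. These shares are the background for every group count below. Levels are CPM (counts scaled to library size by TMM), listed in the order of the replicate numbers, and fold changes are log2 of cerulein over PBS. Where a member of a group is named beyond those a fixed rule picks, it was chosen after its value was seen.

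**Figure D2:**
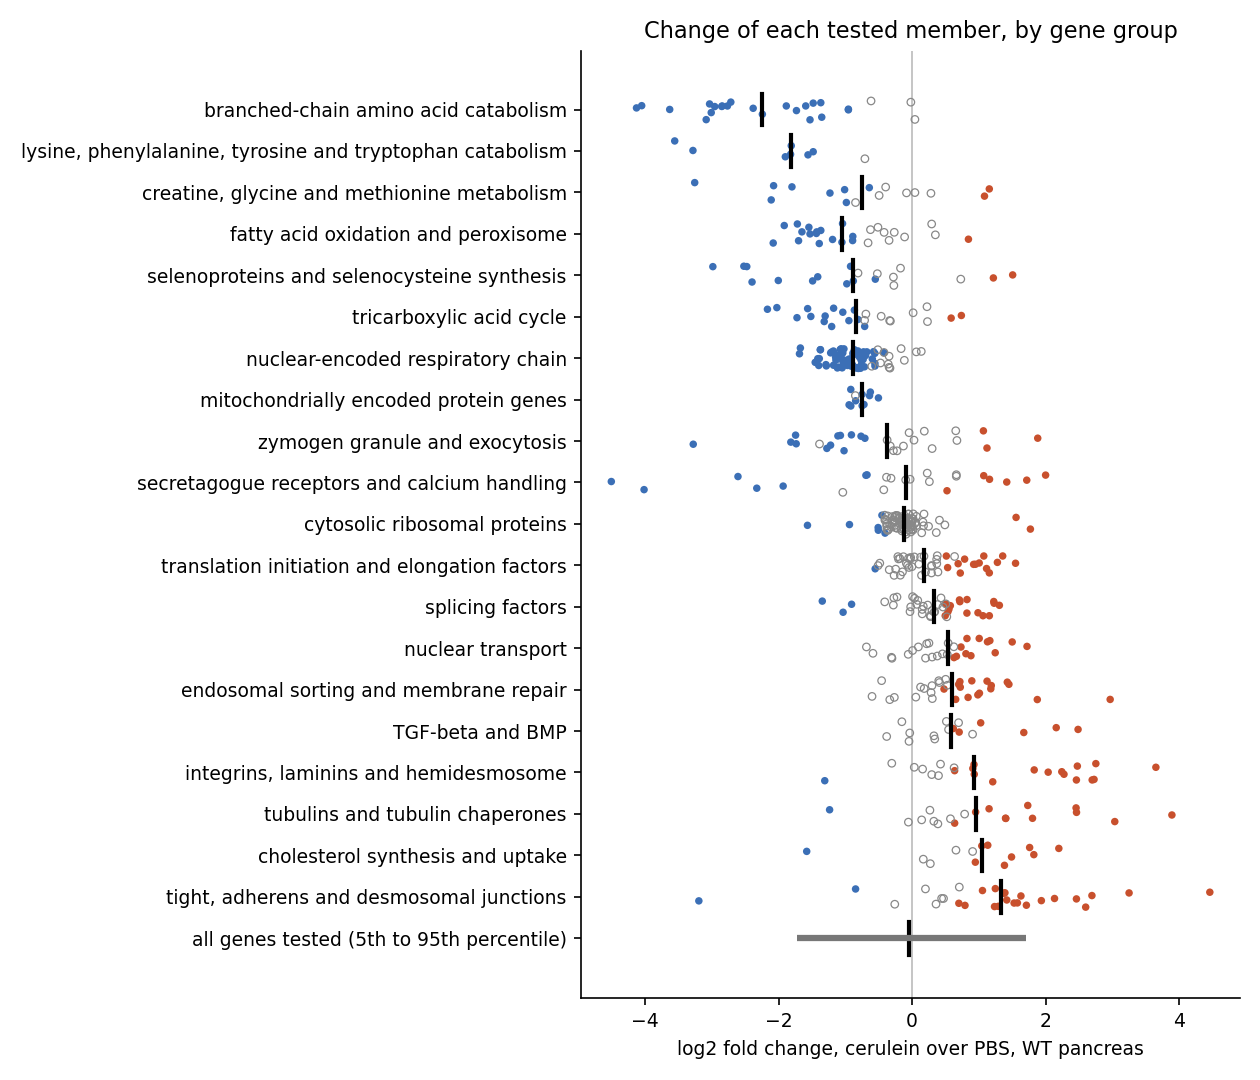
Log2 fold change, cerulein over PBS, of every tested member of 20 gene groups, with called members filled (orange higher, blue lower), others open, and the median as a bar. The bottom row gives the median and the 5th to 95th percentile over all 8236 genes tested, and branched-chain amino acid catabolism has the lowest median of the groups drawn, -2.24, and tight, adherens and desmosomal junctions the highest, 1.34.

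The 20 steepest falls included immunoglobulin genes and adipocyte markers that were highest in WT PBS replicates 1 and 2, and the 20 steepest rises included keratin and heat shock genes. Other steep changes follow. Tac1, the precursor of substance P, stood at 0, 1.49, 0 and 1.23 CPM in the 4 PBS libraries and 47.9, 28.8, 12.2 and 24.8 CPM in the 4 cerulein libraries. Nptx2, a secreted pentraxin, stood at 0, 0, 2.10 and 1.23 CPM in the 4 PBS libraries and 27.1, 28.8, 49.4 and 12.4 CPM in the 4 cerulein libraries. Neither gene's groups overlapped, with fitted log2 fold changes of 5.08 ± 0.83 (SE, adjusted p = 3.64e-05) and 5.03 ± 0.64 (SE, adjusted p = 1.75e-06). The PBS libraries held 3 UMIs of each gene in all, so the ratio of summed UMI shares, 42.2 for Tac1 (95% exact interval 14.1 to 207) and 46.9 for Nptx2 (15.7 to 230), has a wide counting error. At the other end, Cyp39a1, an oxysterol hydroxylase of bile acid synthesis, stood at 134, 152, 187 and 211 CPM in the 4 PBS libraries and 10.9, 11.1, 12.2 and 8.27 CPM in the 4 cerulein libraries, with no overlap and a log2 fold change of -3.92 ± 0.25 (SE, adjusted p = 6.04e-11). Klf15, a transcription factor known for inducing amino acid catabolism in other tissues, stood at 59.9, 47.7, 47.2 and 38 CPM in the 4 PBS libraries and 2.71, 2.21, 3.58 and 3.31 CPM in the 4 cerulein libraries. Its groups did not overlap either, and its log2 fold change was -3.90 ± 0.37 (SE, adjusted p = 2.43e-08). Among abundant transcripts Ctsl, the lysosomal protease cathepsin L, showed one of the largest gains, from 321, 382, 298 and 327 CPM to 1501, 1986, 1864 and 2102 CPM. Every cerulein library was above every PBS library, with a log2 fold change of 2.52 ± 0.19 (SE, adjusted p = 1.08e-09). Of genes without any UMI in 1 group, Nrip3 had 80 UMIs over the cerulein libraries, at least 26.8-fold higher with the PBS group set to 3 UMIs. Scn4b, a sodium channel subunit, had 43 UMIs over the PBS libraries and 0 over the cerulein libraries. It was at least 14.3-fold lower on the same floor.

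Promoters were searched for 6 short motifs to show what the sequence around the start of changed genes holds. RefSeq gave windows from 250 bases before to 50 after the start for 5918 of the 7353 protein-coding genes tested (80.5%). On either strand, the AP-1 motif TGANTCA was in 8.37% of promoters of genes called higher, 6.35% of those called lower, 5.11% of those not called and 6.07% of all. The NF-kB motif (GGGA, any 3 bases, CCC) was in 11.8%, 7.42%, 7.48% and 8.36% of the same sets. For TEAD (GGAATG) the shares were 12.3% of genes called higher and 16.1% of those called lower, for the E-box CACGTG 13.2% and 13.7%, for CRE (TGACGTCA) 3.78% and 2.98%, and for the C/EBP-ATF element TGATGNAAT 0.483% and 0.842%. A match is a description of the letters, and no test was made of these shares. To show the motif in place, 4 genes with an exact match and large gains are given: Cldn4, a tight junction claudin (4.46 log2), Srxn1, which repairs oxidised peroxiredoxins (4.30), Zyx, the focal adhesion protein zyxin (3.65), and Rasl10a, a small GTPase with 3 PBS UMIs in all (4.36). Each line is the 250 bases before the start on the gene's strand, 5′ to 3′, GRCm38.p6, with the motif in capitals (AP-1 in the first 3, NF-kB in the last). Cldn4 is at chr5:134946935-134947184, minus strand, Srxn1 at chr2:152105274-152105523, plus strand, Zyx at chr6:42349578-42349827, plus strand, and Rasl10a at chr11:5057878-5058127, plus strand.
Cldn4: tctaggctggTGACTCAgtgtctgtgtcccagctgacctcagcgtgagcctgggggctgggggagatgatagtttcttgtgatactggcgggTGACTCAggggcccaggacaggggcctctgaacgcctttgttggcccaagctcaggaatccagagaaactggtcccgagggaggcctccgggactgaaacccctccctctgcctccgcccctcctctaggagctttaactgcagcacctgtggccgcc
Srxn1: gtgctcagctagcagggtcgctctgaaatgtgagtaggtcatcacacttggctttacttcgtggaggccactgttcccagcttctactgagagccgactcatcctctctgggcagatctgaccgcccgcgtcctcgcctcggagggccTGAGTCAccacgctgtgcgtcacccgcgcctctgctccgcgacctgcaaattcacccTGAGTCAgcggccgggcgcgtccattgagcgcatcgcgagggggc
Zyx: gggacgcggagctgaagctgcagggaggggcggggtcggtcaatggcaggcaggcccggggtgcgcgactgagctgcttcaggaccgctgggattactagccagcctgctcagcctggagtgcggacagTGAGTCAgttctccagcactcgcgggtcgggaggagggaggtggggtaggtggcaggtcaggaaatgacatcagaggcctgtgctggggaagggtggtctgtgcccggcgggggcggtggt
Rasl10a: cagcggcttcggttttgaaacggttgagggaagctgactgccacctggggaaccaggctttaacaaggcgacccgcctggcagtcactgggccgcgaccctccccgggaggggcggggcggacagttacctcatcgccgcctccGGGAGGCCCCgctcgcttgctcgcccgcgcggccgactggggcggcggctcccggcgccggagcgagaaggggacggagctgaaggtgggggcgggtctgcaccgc
Cldn4 and Srxn1 each hold 2 AP-1 matches, beginning 240 and 158 bases before the start of Cldn4 and 102 and 45 bases before that of Srxn1. The single matches of Zyx and Rasl10a begin 121 and 106 bases before the start.

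Transcripts of the pathway that breaks down the branched-chain amino acids leucine, isoleucine and valine fell nearly throughout. The pathway runs in mitochondria: Bcat2 removes the amino group, the branched-chain ketoacid dehydrogenase complex (Bckdha, Bckdhb, Dbt and the shared subunit Dld) commits the carbon to breakdown, and separate branches for each amino acid end in acetyl-CoA and propionyl-CoA. Of 29 genes listed, a list drawn up after values were seen, 25 were tested, 22 were called lower and 0 higher, against 21.3% lower among all genes. The median log2 fold change was -2.24 against -0.04 over all genes, and all 4 cerulein values lay below all 4 PBS values for the same number of genes, 22.

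At the entry of the pathway, Bcat2 stood at 159, 81.9, 179 and 250 CPM in the 4 PBS libraries and 10.9, 13.3, 12.2 and 17.4 CPM in the 4 cerulein libraries. The groups were far apart, with a log2 fold change of -3.63 ± 0.36 (SE, adjusted p = 4.01e-08). Bckdhb fell from 45.8, 41, 71.4 and 31.9 CPM to 6.33, 4.43, 6.45 and 4.13 CPM, a log2 fold change of -3.03 ± 0.37 (SE, adjusted p = 9.54e-07) with no overlap. Its partners Bckdha (-1.59) and Dbt (-1.35), the inhibiting kinase Bckdk (-0.95) and the activating phosphatase Ppm1k (-1.48) also fell. Dld, which the pyruvate and oxoglutarate dehydrogenases share, overlapped between the groups at 30.6 to 49.3 CPM with PBS and 33.1 to 55.2 CPM with cerulein, and was not called (0.04, adjusted p = 0.891). Its sign turned without WT PBS replicate 1 (-0.055) or WT cerulein replicate 3 (-0.14).

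In the leucine branch Ivd, isovaleryl-CoA dehydrogenase, stood at 89.3, 83.4, 113 and 84.5 CPM in the 4 PBS libraries and 13.6, 5.54, 12.2 and 8.27 CPM in the 4 cerulein libraries, and Mccc2, a subunit of methylcrotonyl-CoA carboxylase, at 15.3, 18.6, 23.1 and 14.7 CPM in the 4 PBS libraries and 2.71, 0, 1.43 and 0 CPM in the 4 cerulein libraries. No cerulein library reached the lowest PBS library for either gene, with log2 fold changes of -3.08 ± 0.29 (SE, adjusted p = 1.66e-08) and -4.05 ± 0.50 (SE, adjusted p = 1.16e-06). The other carboxylase subunit Mccc1 (-2.84) and the hydratase Auh (-1.73) fell too. In the isoleucine and valine branches Acadsb, Acat1, Hibch and Hibadh fell by 2.96, 2.71, 2.85 and 1.88. Aldh6a1, methylmalonate semialdehyde dehydrogenase, showed the largest fall of the pathway, from 75.2, 71.5, 88.2 and 88.2 CPM to 4.52, 6.65, 3.58 and 2.48 CPM without overlap, a log2 fold change of -4.13 ± 0.31 (SE, adjusted p = 8.18e-10). The propionyl-CoA steps that feed the tricarboxylic acid cycle moved with them: Pcca (-2.24), Pccb (-2.38), Mcee (-2.77) and Mmut (-3.01), the cobalamin-dependent mutase. Bcat1, Mmaa, Mmab and Mmachc had too few counts to be tested.

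**Figure D3:**
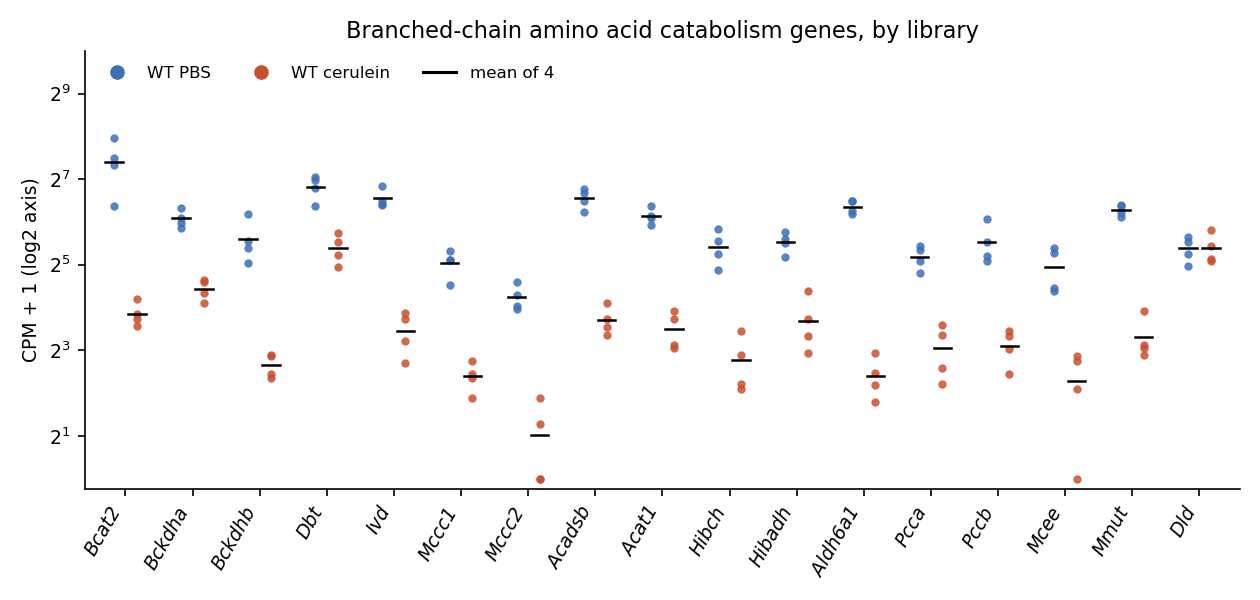
CPM + 1 on a log2 axis for 17 genes of branched-chain amino acid breakdown, with 1 point per library (blue WT PBS, orange WT cerulein) and the mean of 4 as a bar. The orange points lie below the blue points for 16 of the genes, all except Dld, the subunit shared with other dehydrogenases.

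Other amino acid routes moved the same way. Of 8 tested genes for lysine, phenylalanine, tyrosine and tryptophan breakdown, also listed after values were seen, 7 were called lower, 0 higher, with a median of -1.81. Aass, the first enzyme of lysine breakdown, stood at 25.9, 31.3, 45.1 and 36.8 CPM in the 4 PBS libraries and 3.62, 3.32, 2.15 and 1.65 CPM in the 4 cerulein libraries. The groups did not overlap, and the log2 fold change was -3.56 ± 0.39 (SE, adjusted p = 1.87e-07). Qdpr and Pcbd1, which regenerate tetrahydrobiopterin, fell by 1.81 and 1.48.

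Creatine and methionine metabolism was mixed, with 8 of 16 tested genes lower, 2 higher and a median of -0.74. Gatm, which makes the creatine precursor guanidinoacetate and is abundant in acinar cells, stood at 409, 353, 343 and 353 CPM in the 4 PBS libraries and 32.6, 26.6, 33.7 and 50.4 CPM in the 4 cerulein libraries. Its groups did not overlap and its log2 fold change was -3.26 ± 0.23 (SE, adjusted p = 3.35e-10). Gamt, the next step, fell by 1.80, Gnmt, the glycine methyltransferase, by 2.07, and Oat, ornithine aminotransferase, by 2.11. Among those called higher was Mat2a (1.16), the broadly expressed enzyme that makes S-adenosylmethionine, while Mat1a, its liver and pancreas form, fell by 1.01.

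Supply of amino acids and of one-carbon units split by gene: 10 of 24 fell and 4 rose, with a median of -0.16. Mitochondrial Aldh1l2, which oxidises formyl-tetrahydrofolate, fell by 3.55, cytosolic Mthfd1 by 2.23, and the cysteine synthesis enzymes Cbs and Cth by 1.96 and 1.88. Slc38a1, a glutamine transporter, rose from 5.88, 3.72, 0 and 1.23 CPM to 19.9, 18.8, 27.2 and 27.3 CPM without overlap, a log2 fold change of 3.09 ± 0.55 (SE, adjusted p = 9.32e-05), whereas its relatives Slc38a5 and Slc38a2 fell by 1.76 and 1.10. Mthfd1l, which makes formate in mitochondria, rose (2.10). Asparagine synthetase Asns, a known target of amino acid starvation signalling, was not called (0.30, adjusted p = 0.225).

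Selenoproteins, enzymes that carry selenocysteine, fell in the main: 11 of 19 tested were lower and 2 higher, with a median of -0.88, in a list also drawn up after values were seen. Msrb1, methionine sulfoxide reductase, stood at 153, 136, 147 and 175 CPM in the 4 PBS libraries and 12.7, 18.8, 20.1 and 19.8 CPM in the 4 cerulein libraries. The groups did not overlap, with a log2 fold change of -2.98 ± 0.20 (SE, adjusted p = 9.34e-11). Sephs2, which makes the selenium donor for selenocysteine, fell by 2.40, Selenop, the secreted selenium carrier, by 2.48, and the endoplasmic reticulum thioredoxin-like Selenom by 2.52. Txnrd1, cytosolic thioredoxin reductase, went the other way, from 31.3 to 42.9 CPM to 88.6 to 144 CPM, a log2 fold change of 1.51 ± 0.22 (SE, adjusted p = 1.22e-05).

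The nuclear genes of the respiratory chain formed the broadest block of falls. Of 76 tested, 64 were called lower and 0 higher, with a median of -0.88 and 66 genes separated downwards, against 21.3% called lower and 20.2% separated downwards among all genes. Ndufv2, a subunit of the NADH-binding arm of complex I, stood at 112, 117, 88.2 and 115 CPM in the 4 PBS libraries and 31.7, 35.4, 33 and 30.6 CPM in the 4 cerulein libraries, and Atp5h, a stalk subunit of ATP synthase, at 129, 129, 121 and 120.1 CPM in the 4 PBS libraries and 51.6, 49.8, 51.6 and 60.3 CPM in the 4 cerulein libraries. Both sets of cerulein values lay below the PBS values, with log2 fold changes of -1.67 ± 0.23 (SE, adjusted p = 3.86e-06) and -1.18 ± 0.16 (SE, adjusted p = 5.14e-06). By complex, Ndufs6 fell by 1.18, Sdhb by 1.56, Uqcrq by 0.97, Cox5b by 1.02 and Atp5g1 by 1.45. These genes together fell from 1.08% ± 0.151 of UMIs with PBS to 0.683% ± 0.0608 with cerulein (SD, n = 4 each), the smallest p that 4 against 4 can reach in an exact two-sided permutation test (0.02857, 0.03714 after adjustment over 13 gene groups). Without WT PBS replicate 1 the adjusted p was 0.05306, the lowest that any of the 13 gene groups reached without that library.

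The genes of the mitochondrial genome fell as well, by less: 10 of 11 tested protein genes were called lower, 0 higher, with a median of -0.75. mt-Nd1, a core subunit of complex I, stood at 934, 815, 684 and 772 CPM in the 4 PBS libraries and 386, 527, 389.7 and 322 CPM in the 4 cerulein libraries, without overlap and with a log2 fold change of -0.92 ± 0.21 (SE, adjusted p = 0.0015). Counted as a share of all UMIs, all 37 mitochondrially encoded genes, a wider set than the protein genes, moved from 1.13% ± 0.0785 of UMIs with PBS to 1.01% ± 0.172 with cerulein (SD, n = 4 each), which the exact permutation test did not separate (p = 0.3143). The digestive enzymes fill 47.2% of the UMIs of a PBS library and 39.2% of a cerulein library, so a share of all UMIs and a scaled level need not move alike. As a share of the UMIs outside these enzyme genes, the wider set went from 2.14% ± 0.212 to 1.67% ± 0.301 (SD, n = 4 each). The exact permutation test did not separate that share either (p = 0.05714). The shares and the calls above also cover different genes.

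Feeding the chain, 14 of 24 tricarboxylic acid cycle genes fell and 2 rose, Mdh2 among them, with a median of -0.84. Mdh1, the cytosolic malate dehydrogenase of the shuttle that carries reducing equivalents, fell by 2.17 and Suclg2, a subunit of the GTP-forming succinyl-CoA ligase, by 2.02. Mdh2, the mitochondrial malate dehydrogenase, rose from 56.4, 87.1, 64 and 93.1 CPM to 101, 151, 113 and 119.9 CPM without overlap, a log2 fold change of 0.74 ± 0.21 (SE, adjusted p = 0.00589). Cs, citrate synthase at the head of the cycle, was not called (0.23, adjusted p = 0.351). Of 26 fatty acid oxidation and peroxisome genes, 16 fell and 1 rose, with a median of -1.05. Hadh, the hydroxyacyl-CoA dehydrogenase, stood at 42.3, 63.3, 47.2 and 53.9 CPM in the 4 PBS libraries and 13.6, 4.43, 12.9 and 14.1 CPM in the 4 cerulein libraries, with no overlap and a log2 fold change of -2.08 ± 0.26 (SE, adjusted p = 1.64e-06). The electron transfer flavoprotein subunits Etfa and Etfb and its oxidoreductase Etfdh, which also take electrons from branched-chain breakdown, fell by 1.43, 1.72 and 1.91. Ppara, the nuclear receptor that drives many of these genes in liver, fell by 1.70, and Acadl was the member that rose (0.85). The count of 16 was 10 without WT PBS replicates 1 and 2, the libraries with the highest adipocyte marker levels, and the part of these markers in it was not tested.

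**Figure D4:**
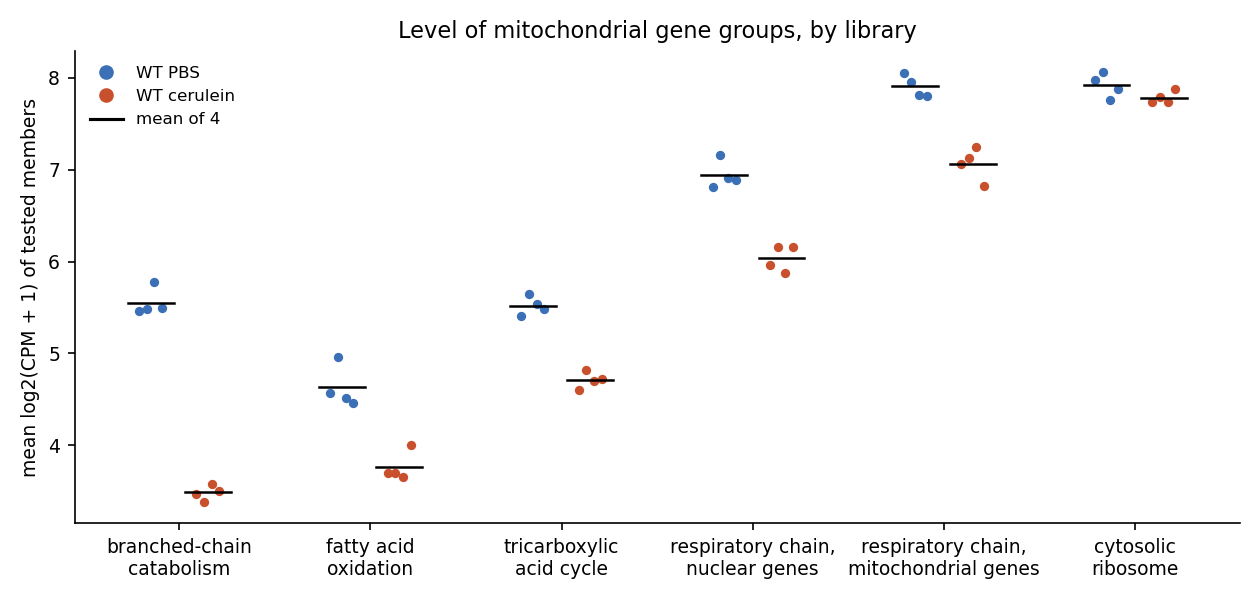
Mean log2(CPM + 1) over the tested members of 5 mitochondrial gene groups and the cytosolic ribosomal proteins, 1 point per library (blue WT PBS, orange WT cerulein), bars at the mean of 4. Branched-chain catabolism drops from 5.47 to 5.77 to 3.39 to 3.58, the nuclear respiratory chain from 6.81 to 7.16 to 5.88 to 6.16, and the cytosolic ribosome stays between 7.76 to 8.06 and 7.74 to 7.88.

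Sterol genes moved against these falls. Of 13 tested genes of cholesterol synthesis and uptake, 8 rose and 1 fell, with a median of 1.05. Msmo1, a methylsterol oxidase, stood at 11.8, 9.68, 5.25 and 17.2 CPM in the 4 PBS libraries and 41.6, 36.5, 33.7 and 46.3 CPM in the 4 cerulein libraries. The groups did not overlap, with a log2 fold change of 1.82 ± 0.27 (SE, adjusted p = 1.23e-05). Sqle, which oxidises squalene, rose from 8.23, 13.4, 11.5 and 9.80 CPM to 27.1, 28.8, 30.8 and 31.4 CPM without overlap, by 1.49, and the sterol sensor Insig1 by 1.38, while the isomerase Ebp fell by 1.58. Fatty acid and lipid synthesis showed no common direction, with 6 of 22 higher and 6 lower: the glycerol acyltransferase Gpam fell by 1.93 and the desaturase Fads1 by 1.49, and Elovl1, which extends very long chains, rose by 1.75. In glucose use, 3 of 14 genes rose and 2 fell. Slc2a1, the glucose transporter GLUT1, rose from 3.53, 5.21, 4.20 and 9.80 CPM to 14.5, 22.1, 38.7 and 33.9 CPM, a log2 fold change of 2.37 ± 0.33 (SE, adjusted p = 5.95e-06), and Ldha by 1.04. Pdk1, a kinase that holds pyruvate dehydrogenase inactive, stood at 43.5, 73, 45.1 and 41.7 CPM in the 4 PBS libraries and 11.8, 3.32, 5.73 and 4.13 CPM in the 4 cerulein libraries. It fell without overlap (-3.06 ± 0.35 (SE, adjusted p = 3.72e-07)), and hexokinase Hk2 fell by 2.22.

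Genes of nuclear transport, translation and splicing rose in part. Of 28 nuclear transport genes, 12 rose and 0 fell, with a median of 0.53, and together they went from 0.0817% ± 0.00382 of UMIs with PBS to 0.153% ± 0.0225 with cerulein (SD, n = 4 each). Rangap1, which activates GTP hydrolysis by Ran at the nuclear pore, stood at 41.1, 39.5, 38.8 and 62.5 CPM in the 4 PBS libraries and 137, 154, 154 and 139 CPM in the 4 cerulein libraries, and the importin Kpnb1 at 51.7, 41.7, 52.5 and 44.1 CPM in the 4 PBS libraries and 114, 85.3, 133 and 95.9 CPM in the 4 cerulein libraries. Neither overlapped, with log2 fold changes of 1.72 ± 0.21 (SE, adjusted p = 1.16e-06) and 1.17 ± 0.18 (SE, adjusted p = 1.58e-05), and the GTPase Ran itself rose by 1.25. Of 47 translation factors, 14 rose and 1 fell, 31.9% called against 41.1% of all genes, with a median of 0.18. Among them Eif6, which keeps ribosomal subunits apart during their assembly, rose by 1.55, and the helicase Eif4a1 by 1.12. Splicing factors had 15 of 42 higher and 3 lower (median 0.34), led in p by Ptbp1 (1.22) and Ptbp3 (1.06), and the kinase Clk4 fell by 1.34. Names sharing the stems Rrp, Nop and Utp, nucleolar factors of ribosome assembly, had 6 of 8, 5 of 8 and 6 of 10 members higher and 0 lower in each.

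The ribosome itself moved little. Of 80 cytosolic ribosomal protein genes, 2 were called higher and 6 lower, the 6 becoming 3 without WT PBS replicate 2 or WT cerulein replicate 4, and 2 without WT PBS replicate 4 or WT cerulein replicate 3. Their share of UMIs went from 3.00% ± 0.316 of UMIs with PBS to 3.15% ± 0.272 with cerulein (SD, n = 4 each) and was not separated (exact p = 0.5429). Of 20 aminoacyl-tRNA synthetases 5 rose and 1 fell, the largest change being Rars (1.47). Of 37 proteasome subunits 8 rose and 1 fell, with the activators Psme3 up by 1.00 and Psme4 down by 1.11. The medians of these lists were 0.13 and 0.12, and 30.0% and 24.3% of their genes were called, against 41.1% of all genes. In UMI shares the translation factors, the splicing factors, the synthetases and the proteasome rose to 1.448, 1.471, 1.515 and 1.268 times the PBS share, each at the smallest reachable exact p of 0.02857 (0.03714 adjusted). The adjusted p was 0.05306 to 0.07429 for these 4 groups without WT PBS replicate 1, 0.07429 for the proteasome without WT cerulein replicate 3, and 0.06753 to 0.07429 for the translation factors without WT PBS replicate 2, 3 or 4. As shares of the UMIs outside the digestive enzyme genes, these 4 groups rose by less, to 1.255, 1.274, 1.313 and 1.1 times the PBS share. Of the mitochondrial ribosomal proteins 21 of 76 were lower and 7 higher, 36.8% called against 41.1% of all genes, of which 21.3% were lower. The count of 21 was 13 without WT PBS replicate 2.

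The receiving end of the cerulein stimulus fell at several steps. Cckar, the receptor that cerulein binds, stood at 326, 298, 397 and 425 CPM in the 4 PBS libraries and 19.9, 21, 25.1 and 20.7 CPM in the 4 cerulein libraries, the groups being far apart, with a log2 fold change of -4.01 ± 0.30 (SE, adjusted p = 6.69e-10). Plcb1 and Plcb4, phospholipases C beta, fell by 2.33 and 2.61, and the inositol trisphosphate receptor Itpr2 went from 40 to 62.5 CPM to 10.7 to 19.9 CPM, a log2 fold change of -1.93 ± 0.25 (SE, adjusted p = 1.95e-06). Over the list, 7 of 23 tested genes fell and 6 rose. Those that rose included Trpv6 (2.00) and Orai1 (1.07), which carry calcium through the plasma membrane, Rgs2 (1.72), which shortens Gq signals, and Plcb3 (1.42).

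Zymogen granule and exocytosis genes fell more than they rose, 12 against 3 of 27, with a median of -0.37 and a UMI share that went from 3.85% ± 0.133 of UMIs with PBS to 3.01% ± 0.169 with cerulein (SD, n = 4 each) (exact p = 0.02857, adjusted 0.03714, or 0.05306 without WT PBS replicate 1). Rab3a, a vesicle GTPase, stood at 17.6, 16.4, 14.7 and 17.2 CPM in the 4 PBS libraries and 0, 2.21, 0.716 and 3.31 CPM in the 4 cerulein libraries, with no overlap and a log2 fold change of -3.28 ± 0.56 (SE, adjusted p = 6.69e-05). Rab27a fell by 1.82 and Serpini2, a pancreatic serpin, by 1.74. The syntaxin Stx3, which sits on granule membranes, rose from 11.8, 5.96, 15.7 and 2.45 CPM to 39.8, 27.7, 34.4 and 37.2 CPM, a log2 fold change of 1.88 ± 0.31 (SE, adjusted p = 4.19e-05), and Rab11a by 1.07. Of 35 digestive enzyme genes, 12 fell and 4 rose. All 4 that rose are trypsinogen-like genes on chromosome 6: 1810009J06Rik (4.63), Gm5771 (2.99), Prss1 (2.29) and Prss3 (2.23). Prss1 stood at 264, 282, 217 and 269.6 CPM in the 4 PBS libraries and 941, 1665, 1382 and 751 CPM in the 4 cerulein libraries. These genes are near-identical copies of more abundant neighbours, so how the authors' counting split reads among them is uncertain, and the abundant Prss2 was not called (-0.35, adjusted p = 0.218).

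Transport across the acinar and duct membranes changed by gene. The chloride channel genes Clic1 and Ano1 rose by 2.93 and 2.21, Ano1 being the calcium-activated channel of the apical membrane, and the anion exchanger Slc26a6 went from 14.9 to 30.4 CPM to 4.43 to 8.14 CPM, a log2 fold change of -1.96 ± 0.35 (SE, adjusted p = 0.000109). Of 18 transcription factors of acinar and duct cells, 6 fell and 5 rose: besides the acinar Bhlha15 (-2.66), the secretory factors Creb3l1 (-1.94) and Spdef (-1.52) fell, and the duct and progenitor factors Sox9 (1.02) and Hes1 (1.51) rose. Duct markers rose in 5 of 6, with a summed level of 359 to 408 CPM with PBS and 1165 to 1446 CPM with cerulein, and acinar markers fell in 5 of 9 and rose in 0.

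**Figure D5:**
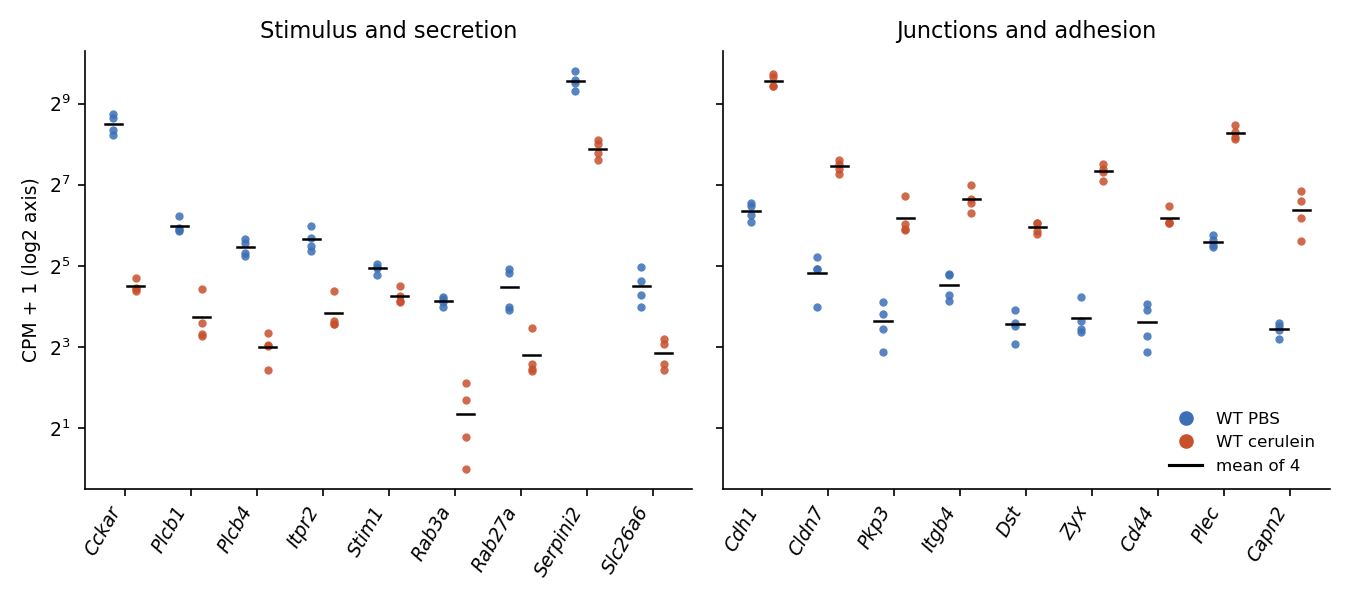
CPM + 1 on a log2 axis for 9 genes of stimulus and secretion (left) and 9 of junctions and adhesion (right), 1 point per library (blue WT PBS, orange WT cerulein), bars at the mean of 4. All 9 genes on the left are lower in every cerulein library than in any PBS library, with Cckar falling from between 298 and 425 CPM to between 19.9 and 25.1 CPM, and all 9 on the right are higher. The genes drawn are a selection, so their common direction is not a result about their lists. Of 23 tested receptor and calcium genes 7 fell and 6 rose, and of 27 zymogen granule genes 12 fell and 3 rose. Of 28 junction genes 20 rose and 2 fell, and of 23 integrin, laminin and hemidesmosome genes 15 rose and 1 fell.

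Genes of cell contacts rose on both the lateral and the basal side. Of 28 tested junction genes, 20 rose and 2 fell, with a median of 1.34, against 19.8% higher among all genes. Cdh1, E-cadherin of the adherens junction, stood at 92.9, 66.3, 75.6 and 88.2 CPM in the 4 PBS libraries and 690.1, 801, 848 and 684 CPM in the 4 cerulein libraries, and Pkp3, a desmosomal plakophilin, at 12.9, 16.4, 6.30 and 9.80 CPM in the 4 PBS libraries and 58.8, 57.6, 64.5 and 105 CPM in the 4 cerulein libraries. The groups did not overlap, with log2 fold changes of 3.25 ± 0.19 (SE, adjusted p = 2.53e-11) and 2.70 ± 0.28 (SE, adjusted p = 7.38e-08). The claudin Cldn7 rose by 2.60. Cldn10, a claudin that forms paracellular ion pores, fell from 54.1, 88.6, 68.2 and 49 CPM to 11.8, 7.75, 3.58 and 3.31 CPM (-3.19 ± 0.38 (SE, adjusted p = 6.45e-07)). On the basal side, 15 of 23 integrin, laminin and hemidesmosome genes rose and 1 fell, with a median of 0.93. Itgb4, the hemidesmosomal integrin, stood at 16.5, 26.8, 26.2 and 18.4 CPM in the 4 PBS libraries and 92.3, 98.6, 77.4 and 127 CPM in the 4 cerulein libraries, without overlap and with a log2 fold change of 2.24 ± 0.28 (SE, adjusted p = 1.16e-06). Its linkers Plec and Dst rose by 2.70 and 2.48, the laminin chain Lama5 by 2.04, and the hyaluronan receptor Cd44 by 2.75. Itga1, a collagen receptor subunit, fell by 1.31.

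Genes of microtubules and of membrane sorting rose with them. Of 19 tubulin and tubulin chaperone genes, 11 rose and 1 fell, and their share of UMIs went from 0.0775% ± 0.00422 of UMIs with PBS to 0.174% ± 0.00905 with cerulein (SD, n = 4 each) (exact p = 0.02857, adjusted 0.03714, or 0.05306 without WT PBS replicate 1). Tuba1c stood at 32.9, 35.7, 33.6 and 58.8 CPM in the 4 PBS libraries and 204, 250.3, 231 and 202 CPM in the 4 cerulein libraries, with no overlap and a log2 fold change of 2.46 ± 0.25 (SE, adjusted p = 8.18e-08), and the microtubule binder Map4 rose by 2.46. Of 30 genes of endosomal sorting and membrane repair, 16 rose and 0 fell, with a median of 0.59. Capn2, a calcium-activated protease that cuts the cortical cytoskeleton, stood at 8.23, 9.68, 10.5 and 11 CPM in the 4 PBS libraries and 113, 70.9, 95.3 and 47.9 CPM in the 4 cerulein libraries, without overlap and with a log2 fold change of 2.97 ± 0.27 (SE, adjusted p = 1.13e-08). Its isoform Capn1 rose by 1.88, the calcium sensor Pdcd6, which calls repair proteins to wounded membrane, by 1.45, and the ESCRT-III subunit Chmp4b by 1.12. Annexins and S100 proteins, which also bind membranes with calcium, had 7 of 15 higher and 2 lower, with S100g up by 3.71 and S100a11 by 2.69.

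Among regulators, the TGF-beta and BMP list had 6 of 16 genes higher and 0 lower, with a median of 0.58. In all 37.5% of it was called, against 41.1% of all genes, of which 19.8% were higher. The transducers Smad3 and Smad1 rose by 2.16 and 1.67, and the co-repressor Tgif1 by 2.49. Of 9 MAP kinase feedback genes tested, 4 rose, with Dusp5, the phosphatase of nuclear ERK, going from 1.18, 1.49, 1.05 and 2.45 CPM to 19, 14.4, 15.8 and 10.7 CPM (3.11 ± 0.49 (SE, adjusted p = 2.49e-05)), and Errfi1, which inhibits the EGF receptor, rising by 2.86. Of the growth arrest and cyclin genes, 7 of 16 were higher, with the stress gene Gadd45b at 3.34 and the kinase inhibitor Cdkn1c at 2.03, and 4 were lower, among them Cdk6 (-2.30) and the cyclin Ccnd2 (-0.80). Of 16 clock genes 6 were called lower and 0 higher, 37.5% against 41.1% of all genes, with Per2 down by 2.25. The largest change in this list was a rise of 3.11 in a gene that was not called. Among hypoxia targets 5 of 15 rose and 3 fell: Ndrg1 rose by 2.75 and Car9 by 2.48, but Bnip3, a mitophagy receptor, was down by 2.39.

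Inflammatory messengers were few but rose. Of 10 chemokine and cytokine genes tested, 6 rose and 1 fell, with a median of 2.48. Il1rn, the interleukin 1 receptor antagonist, stood at 0, 2.23, 0 and 1.23 CPM in the 4 PBS libraries and 17.2, 17.7, 11.5 and 19 CPM in the 4 cerulein libraries, and Cxcl16 at 3.53, 8.94, 4.20 and 1.23 CPM in the 4 PBS libraries and 31.7, 28.8, 29.4 and 24.8 CPM in the 4 cerulein libraries. No PBS library reached the lowest cerulein library for either, with log2 fold changes of 3.94 ± 0.63 (SE, adjusted p = 2.95e-05) and 2.44 ± 0.43 (SE, adjusted p = 8.76e-05). Ccl2, which draws monocytes, rose by 2.52, and by 4.87 without WT PBS replicate 2, the PBS library with most Ccl2 UMIs, and Lif, a cytokine of the interleukin 6 family, by 3.79, from 1 UMI over the 4 PBS libraries to 22 over the 4 cerulein libraries, a ratio of UMI shares of 22.1 (95% exact counting interval 3.57 to 912). Tnf and Il6 were too low to test, with 1 UMI each over the 4 PBS libraries and 2 and 3 over the 4 cerulein libraries. Cxcl12 fell by 1.44. Summed macrophage marker levels spanned 80.8 to 433 CPM with PBS and 165 to 239 CPM with cerulein, over 8 of 12 markers tested, and their part in these changes was not tested.

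The same contrast was made in Adam17ex mice, with 4 libraries per treatment, and the difference between genotypes was tested as an interaction. The interaction was called for 496 genes (6.02%), 309 (3.75%) with a higher and 187 (2.27%) with a lower log2 fold change in Adam17ex. In Adam17ex alone 30.3% of genes were called, 14.1% higher and 16.2% lower. Transcripts of branched-chain breakdown fell there as well, in 20 of 25 genes with a median of -1.38, and the interaction was called for 5 of the 25. For the respiratory chain, 9 of 76 genes were lower and 1 higher in Adam17ex, with a median of -0.19, and the interaction was called for 13. For Cckar the log2 fold change was -0.89 ± 0.26 in Adam17ex, a difference of 3.12 ± 0.39 (adjusted p = 5.16e-05). The branched-chain list was drawn up after WT values were seen, and Cckar was named for its WT change, which the interaction subtracts. That choice favours a weaker response in Adam17ex, so the differences between genotypes given for this pathway and for Cckar are not a result about them. The calls fell from 496 to 322 without WT cerulein replicate 3. Adam17ex PBS replicates 1 to 3 held 455547 to 492878 UMIs, fewer than any WT library. Leaving out these 3 leaves 1 library in that group, so only sizes of the difference are given. It went from 3.12 to 2.62 for Cckar, from 1.57 to 1.41 for Acadsb and from 1.07 to 0.75 for Ndufv2. In other respiratory chain genes it shrank from 1.19 to 0.79 for Sdhb, 1.26 to 1.04 for Atp5g1, 1.00 to 0.82 for Atp5h and 0.91 to 0.73 for Ndufs6. For Acat1 it grew, from 1.27 to 1.43. Whether the 13 respiratory chain and 5 branched-chain calls hold without these 3 libraries cannot be judged from 1 library.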

How the data were processed

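Per the labels' protocols, TRIzol RNA from snap-frozen pancreas (30 ng per library) was primed on its poly(A) tail with a sample index and a 10 bp UMI, and 101 bp of cDNA was sequenced in the sense direction. The authors deposited whole-number UMI counts per gene, not normalized. Per the submitters' processing notes, R 4.1.2, edgeR 3.36.0, limma 3.50.0 were run and GRCm38 (mm10) was the build; aligner and counting step: not given in the sources used here. Priming at the tail counts transcript ends, so counts do not rise with transcript length, and depth limits what can be tested: 1 UMI is worth 0.743 to 1.16 CPM in a WT library before scaling.

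In R 4.3.3 with edgeR 4.0.16, genes were filtered with filterByExpr (minimum count 10), scaled by TMM and fitted by quasi-likelihood over all 16 libraries, which share 1 estimate of spread (11 residual degrees of freedom), with terms for the 4 groups and for sex. P-values were adjusted by Benjamini-Hochberg over the 8236 genes tested. Every pair of replicates differed beyond counting noise (chi-square per degree of freedom of at least 3.23), so each counted as 1 sample. CPM are relative to TMM-scaled totals. A fall of the digestive enzymes, which dominate these libraries, can raise the others in such relative units. Shares of UMIs were compared by exact two-sided permutation of 4 against 4 libraries. The test was checked on simulated data.

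The comparison and the gene lists were chosen with earlier results of these data known. Genes were named by size and p. Called genes with a full symbol and a mean count over the WT libraries of 10 or more gave the 20 steepest rises, the 20 steepest falls, and the 10 largest gains and 10 largest losses of CPM. Each list gave the 4 members of smallest p and that of largest change, and genes at 0 in 1 group were added when the other held 40 UMIs or more. Members named beyond these, and the lists for branched-chain amino acids, for lysine, phenylalanine, tyrosine and tryptophan, and for selenoproteins, were chosen after values were seen. Some members of the lists, though counted in them, are not reported here by name. Alternatives were other scaling (RLE, upper quartile, TMM without digestive enzymes), no filter, no sex term, a replicate block, DESeq2 1.42.0, limma-voom 3.58.1, thinning to equal depth, WT libraries alone, females alone, and left-out libraries.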

Additional observations from a re-analysis of the deposited data

Results flagged for a closer look

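Single libraries stood apart within their group of 4, by the gap to the nearest library over the group's range, in 27 of 440 groups checked, where chance gives about 5%. WT PBS replicate 2 was the far library for Etfdh (26.1 CPM), Pdk1 (73.0), Psme3 (23.8), Ccl2 (11.9), Lif (0.745) and Rasl10a (0). For Lif and Rasl10a, with 1 and 3 UMIs over the PBS libraries, the gap is that between 0 and 1 UMI. WT PBS replicate 1 was the far library for Gatm (409 CPM), Gnmt (116), Smad1 (23.5) and the share of splicing factors (0.271% of UMIs). WT PBS replicate 3 was for Ndufs6 (197 CPM), S100g (5.25) and the mean log2(CPM + 1) of branched-chain breakdown (5.77), and WT PBS replicate 4 for Rangap1 (62.5 CPM), Spdef (25.7) and Tuba1c (58.8).

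Among the cerulein libraries, replicate 1 was far from the others for Gpam (10.8 CPM) and Msrb1 (12.7). Replicate 2 was for Hadh (4.43 CPM), Itpr2 (19.9), Rab27a (9.97) and the mean log2(CPM + 1) of red blood cell markers (8.17). Replicate 3 was for Cd44 (87.4 CPM), and replicate 4 for Atp5h (60.3 CPM), Cbs (58.7), Pkp3 (105) and the mean log2(CPM + 1) of fatty acid oxidation (4.01).

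For 38 of the 155 genes named, the response to cerulein differed between genotypes in the interaction test, against 6.02% of all genes tested. Most of the 155 were named for the size or p of their WT change, which the interaction subtracts. That choice favours a weaker response in Adam17ex, so neither the share nor the directions below are a result about these genes. Values are the log2 fold change in Adam17ex minus that in WT. Among the 38, genes that fell in WT mostly fell less in Adam17ex. In amino acid metabolism the difference was 2.48 for Cth, 2.40 for Aldh1l2, 1.94 for Aass, 1.79 for Aldh6a1, 1.68 for Slc38a5, 1.63 for Mmut, 1.62 for Mat1a, 1.57 for Acadsb, 1.56 for Slc38a2, 1.53 for Pccb, 1.27 for Acat1, 1.26 for Gatm, 1.18 for Cbs and 0.90 for Pcbd1. Among mitochondrial genes it was 1.42 for Mdh1, 1.26 for Atp5g1, 1.19 for Sdhb, 1.07 for Ndufv2, 1.00 for Atp5h and 0.91 for Ndufs6, and it was 3.12 for Cckar, 2.76 for Cyp39a1, 1.48 for Selenop and 1.12 for Msrb1.

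Those of the 38 that rose in WT rose less, or did not rise, in Adam17ex. At the cell surface and its cytoskeleton the difference was -3.92 for Cldn4, -2.44 for Zyx, -1.76 for Capn2, -1.49 for Map4, -1.45 for Itgb4, -1.15 for Plec and -1.13 for Cldn7. It was -2.84 for Cdkn1c, -2.69 for Errfi1, -2.06 for S100a11, -1.39 for Clic1, -1.29 for Acadl, -1.25 for Smad1 and -1.05 for Ctsl. Leaving out the 3 shallow Adam17ex PBS libraries leaves 1 library in that group. The difference was then -3.76 for Cldn4, -2.3 for Zyx and -0.95 for Map4, and it grew to -1.98 for Itgb4.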

How the results depend on the processing

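Calls over all genes numbered 2774 to 3844 in 12 of the alternatives that left out no single WT library. The exceptions were thinning to equal depth, with 2089 (1071 higher, 1018 lower), and leaving out WT PBS replicates 1, 2 and 4 together, an alternative added after the data were seen, with 1687 (804 and 883). Both test fewer UMIs or samples, and the latter leaves 1 WT PBS library. Leaving out single libraries gave 2919 to 3232 calls. Interaction calls were 285 after thinning, 153 without WT PBS replicates 1, 2 and 4, 152 without Adam17ex PBS replicates 1 to 3, and 322 to 486 without single libraries. Fatty acid oxidation had 8 lower genes after thinning, 10 without WT PBS replicates 1 and 2 and 7 without replicates 1, 2 and 4, where the respiratory chain had 30 and endosomal sorting had 3 higher. The log2 fold change of Dld turned to -0.066 after thinning, and to -0.163 and -0.212 without those 2 or 3 PBS libraries. Its lowest value without single libraries was -0.14, and its highest over all alternatives was 0.194.

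UMI shares without single libraries, as a ratio of cerulein to PBS, ran over 0.801 to 0.855 for digestive enzymes, 0.605 to 0.675 for the respiratory chain, 0.767 to 0.801 for zymogen genes, 2.14 to 2.71 for annexins, 2.21 to 2.30 for tubulins, 1.23 to 1.32 for proteasome, 1.47 to 1.55 for synthetases, 1.41 to 1.51 for translation, 1.41 to 1.54 for splicing and 1.78 to 1.99 for nuclear transport. Their adjusted exact p was above 0.05 for all 10 of these groups without WT PBS replicate 1 (0.05306 to 0.07429), for digestive enzymes and translation without each PBS replicate in turn (0.06753 to 0.07429), and for proteasome without WT cerulein replicate 3 (0.07429). With 1 library left out, fewer arrangements than the 70 of 4 against 4 are possible, so the exact p moves in coarser steps. What else moved it was not tested. The ribosomal protein share turned to 0.911 outside the digestive enzymes. With the replicate number as a block, 3333 genes were called (1611 higher, 1722 lower) and 488 interactions. Same-numbered WT libraries did not deviate together (r = -0.051, 0.0796, 0.0367 and -0.0776), so the numbers were not taken as pairs.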

Other observations

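Grouping the tested genes by the stem of their symbol, after values were seen and with no test, showed other families that moved mostly one way. Of 10 Tmed genes, cargo receptors of the early secretory pathway, 9 were called lower and 0 higher with a median log2 fold change of -1.19, and of 10 Trappc genes, which tether transport vesicles, 6 were lower and 1 higher (median -0.77). Aldehyde dehydrogenases, several of which serve the amino acid routes described above, had 10 of 12 lower and 1 higher (median -1.63). In the other direction 8 of 14 myosin genes with the stem Myo were higher and 1 lower (median 0.61), and 9 of 13 leucine-rich repeat genes with the stem Lrrc were higher and 1 lower (median 0.91). Among all genes tested 19.8% were higher and 21.3% lower.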
